A study of Saccharomyces cerevisiae with 24 samples.

Results

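Budding yeast cells that lack SET2, the gene for the histone H3 lysine 36 methyltransferase, were followed over their first hour in minimal medium. The comparison sets 2 libraries of set2Δ cells (genotype set2Δ, strain CEN.PK) after 1 h in minimal SL medium against 2 libraries of the same strain at 0 h, in log phase in YPL medium, across all genes. These 4 libraries were chosen by their sample labels, out of 24 in the series. Cells were rinsed with SL before the move. The same move was made with cells of 2 other genotypes of strain CEN.PK that serve here for tests of a difference in response: cells labelled HHT1:K36A,HHT2:K36A, called H3K36A below, in which both histone H3 genes are labelled as carrying alanine for lysine 36, and WT cells. Each of these also had 2 libraries at 1 h and 2 at 0 h. The labels do not say whether the 2 libraries of a group came from separate cultures or clones, so p-values measure only the spread between libraries of a group, which may be technical. That spread was estimated over all 24 libraries, which include groups not compared here. The medium, the wash and the hour of growth changed together between 0 h and 1 h and cannot be told apart.

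Set2 travels with elongating RNA polymerase II and methylates lysine 36 of histone H3 along transcribed genes; the mark recruits the Rpd3S deacetylase complex, which closes chromatin behind the polymerase and restrains transcription that starts inside genes. Yeast moved to a poorer medium lowers the genes that build ribosomes and raises the stress response, storage carbohydrate and biosynthetic genes. A medium without methionine also calls for sulfate assimilation, which is driven by the activator Met4 with its DNA-binding partners Cbf1, Met31 and Met32.

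The deposited read counts summed to 6931877 to 7472091 in the 4 set2Δ libraries. SET2 itself had 0 counts in each of them, which allows up to 3 counts per library, against 254 and 279 counts in WT at 1 h and 415 and 389 in WT at 0 h. The 7 genes that mark cells of mating type a summed to 2099 and 2390 counts in set2Δ at 1 h and to 3018 and 3856 at 0 h, while the 4 genes that mark alpha cells summed to 587 and 643 counts at 1 h and 219 and 241 at 0 h. Of these 4, the agglutinin gene SAG1 held most, with 559 and 625 counts at 1 h and 187 and 208 at 0 h; the pheromone genes MF(ALPHA)1 and MF(ALPHA)2 and the receptor gene STE3 had 2 to 19 counts in these libraries. The part of these markers in the results was not tested. The 2 libraries of set2Δ at 0 h stood further apart than any other replicate pair, with 99 genes at least 2-fold apart and a chi-square per degree of freedom of 14.9, against 47 genes and 4.01 for the pair at 1 h. In the libraries labelled H3K36A, HHT1 and HHT2 had 0 to 2 counts, so the substitution cannot be checked from the counts of these genes.

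Most of the transcriptome changed within the hour. Of 6503 genes tested, 4489 (69.0%) were called by edgeR's quasi-likelihood test at a Benjamini-Hochberg adjusted p under 0.05. The calls divided into 2220 genes higher at 1 h (34.1%) and 2269 lower (34.9%). At least 2-fold higher were 924 genes (14.2%) and at least 2-fold lower 1233 (19.0%). Among the larger changes, 150 genes were at least 16-fold lower (2.31%) and 74 at least 16-fold higher (1.14%). The values of the 1 h and 0 h libraries did not overlap for 5208 genes (80.1%). These are levels relative to the other genes of a library, since nothing in the tables measures RNA per cell, and fewer transcripts per cell cannot be told apart from a smaller share. Scaling by library totals in place of the trimmed mean of M values moved the median log2 change of all genes to 0.31, from 0.02, and the share of calls that were higher to 63.2%, from 49.5%. Changes smaller than that shift depend on the scaling.

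The genes that take up sulfate and build methionine rose most steeply, beside 34.1% of all genes called higher and 34.9% called lower. Of 29 genes of sulfate assimilation and methionine synthesis that were tested, 27 rose and 2 fell, with a median log2 change of 4.18 against 0.02 over all genes. Together they held 57555 and 58786 CPM (counts scaled to a common library size by the trimmed mean of M values) at 1 h, against 4863 and 5014 CPM at 0 h. MET3, the ATP sulfurylase that opens the pathway, had 4512 and 4776 CPM at 1 h and 39.3 and 44.1 CPM at 0 h. Both libraries at 1 h lay far above both at 0 h, and the log2 change was 6.80 ± 0.11 (SE, adjusted p = 2.32e-25). MET16, which reduces activated sulfate, had 1253 and 1171 CPM at 1 h and 19.1 and 14.7 CPM at 0 h, a log2 change of 6.16 ± 0.11. MET6, the methionine synthase, had 6696 and 7327 CPM at 1 h and 80.2 and 93.2 CPM at 0 h, a log2 change of 6.34 ± 0.13. MET10 and MET14, for sulfite reductase and adenylyl sulfate kinase, rose by 5.97 and 5.59 log2 units. The 2 members that fell stand at the methyl cycle: SAM4, which methylates homocysteine with S-adenosylmethionine, fell by 2.02 on the log2 scale, and SAH1, which hydrolyses S-adenosylhomocysteine, fell by 1.87.

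Of 6 Met4 regulatory factors, 5 rose and 1 fell, beside 34.1% and 34.9% of all genes. MET28, a cofactor of Met4, had 606 and 614 CPM at 1 h and 6.81 and 7.85 CPM at 0 h, and MET32 had 633 and 581 CPM at 1 h and 16.4 and 13.7 CPM at 0 h. MET32 changed by 5.33 ± 0.14 log2 units, while its close relative MET31 fell by 1.11. MET4 itself rose by 0.82 and CBF1 by 0.94, against a median of 4.18 for the pathway genes. The pathway genes counted above include methionine permeases: MUP3 had 519 and 543 CPM at 1 h and 11.6 and 11.8 CPM at 0 h, and MUP1, the high-affinity permease, had 1709.6 and 1689 CPM at 1 h and 202 and 219 CPM at 0 h.

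The promoters of MET3 and MET16 are printed because Met4's DNA-binding partners recognise short motifs; those of MET16, CTT1 and DRS1 were chosen after their values were seen, the others by rule. Promoters here are the 300 bases before the annotated start codon, read from the R64 genome assembly (RefSeq), 5′ to 3′ on the strand of the gene, and capitals mark matches on either strand to the motifs searched: CACGTG (Cbf1), TGTGGC (Met31 and Met32), AGGGG (stress response element), GATGAG (PAC), AAAATTTT (RRPE), TGACTC (Gcn4) and CCAAT (Hap complex).
MET3 promoter, chrX:455939-456238, plus strand: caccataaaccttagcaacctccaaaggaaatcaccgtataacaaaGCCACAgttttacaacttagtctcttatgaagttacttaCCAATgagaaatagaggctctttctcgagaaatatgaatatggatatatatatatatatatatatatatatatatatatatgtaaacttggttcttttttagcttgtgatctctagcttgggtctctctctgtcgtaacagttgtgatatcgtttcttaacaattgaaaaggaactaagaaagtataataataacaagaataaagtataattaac
MET16 promoter, chrXVI:877633-877932, minus strand: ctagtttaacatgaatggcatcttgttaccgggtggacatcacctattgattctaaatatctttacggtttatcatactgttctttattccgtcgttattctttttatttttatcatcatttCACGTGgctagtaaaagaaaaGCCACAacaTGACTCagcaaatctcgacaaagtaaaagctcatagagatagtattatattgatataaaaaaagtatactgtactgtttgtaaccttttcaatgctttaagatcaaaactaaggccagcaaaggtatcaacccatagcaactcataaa
The MET3 window held CCAAT and held TGTGGC 254 to 249 bases before the start, as its reverse complement. The MET16 window held CACGTG, then TGTGGC and TGACTC, within 178 to 143 bases before the start. Among the 29 pathway promoters, 55.2% held TGTGGC and 31.0% held CACGTG, against 8.27% and 3.6% of all 5755 promoters searched. A match is a description of the sequence only.

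Stress and stationary phase genes rose as well, beside 34.1% of all genes called higher and 34.9% called lower. Of 41 genes of the general stress response, which the activators Msn2 and Msn4 drive through the stress response element, 36 rose, 3 fell and 2 were not called, with a median log2 change of 2.03. GRE1, a hydrophilin induced by stress and water loss, ranked first among the risen genes named by the size rule, with 7215 and 6936 CPM at 1 h and 30.2 and 26.6 CPM at 0 h, a log2 change of 7.96 ± 0.11. CTT1, the cytosolic catalase, had 1069 and 1065 CPM at 1 h and 26.5 and 34.5 CPM at 0 h, a log2 change of 5.13 ± 0.14. SPG1, a gene needed in stationary phase, had 606 and 556 CPM at 1 h and 11.2 and 6.25 CPM at 0 h. All 14 stationary phase and hydrophilin genes rose, by 0.69 to 7.96 log2 units. HXK1, a hexokinase on the stress list, fell, with 286 and 281 CPM at 1 h and 1342 and 1324 CPM at 0 h, a log2 change of -2.23 ± 0.11. HSP12, a membrane-bound heat shock protein gene, had 5757 and 5597 CPM at 1 h and 1164 and 689 CPM at 0 h, and the 0 h libraries lay apart from each other yet both below those of 1 h.
GRE1 promoter, chrXVI:129139-129438, minus strand: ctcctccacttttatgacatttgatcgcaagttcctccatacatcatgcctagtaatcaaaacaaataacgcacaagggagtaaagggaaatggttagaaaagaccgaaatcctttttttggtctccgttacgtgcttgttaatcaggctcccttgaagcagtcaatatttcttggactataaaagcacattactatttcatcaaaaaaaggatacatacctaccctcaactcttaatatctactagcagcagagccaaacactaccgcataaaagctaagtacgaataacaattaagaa
CTT1 promoter, chrVII:654334-654633, plus strand: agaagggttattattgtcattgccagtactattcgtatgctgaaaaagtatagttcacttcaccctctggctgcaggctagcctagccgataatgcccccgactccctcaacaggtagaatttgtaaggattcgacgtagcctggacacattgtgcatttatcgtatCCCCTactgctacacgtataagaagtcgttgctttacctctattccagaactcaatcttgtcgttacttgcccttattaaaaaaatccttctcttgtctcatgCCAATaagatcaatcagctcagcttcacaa
The CTT1 window held AGGGG, as its reverse complement, 133 to 129 bases before the start, and the GRE1 window held none of the motifs searched. AGGGG was in 75.6% of the stress promoters, in 41.1% of the promoters of genes called at least 2-fold higher, in 14.8% of those at least 2-fold lower and in 22.8% of all promoters.

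**Figure D1:**
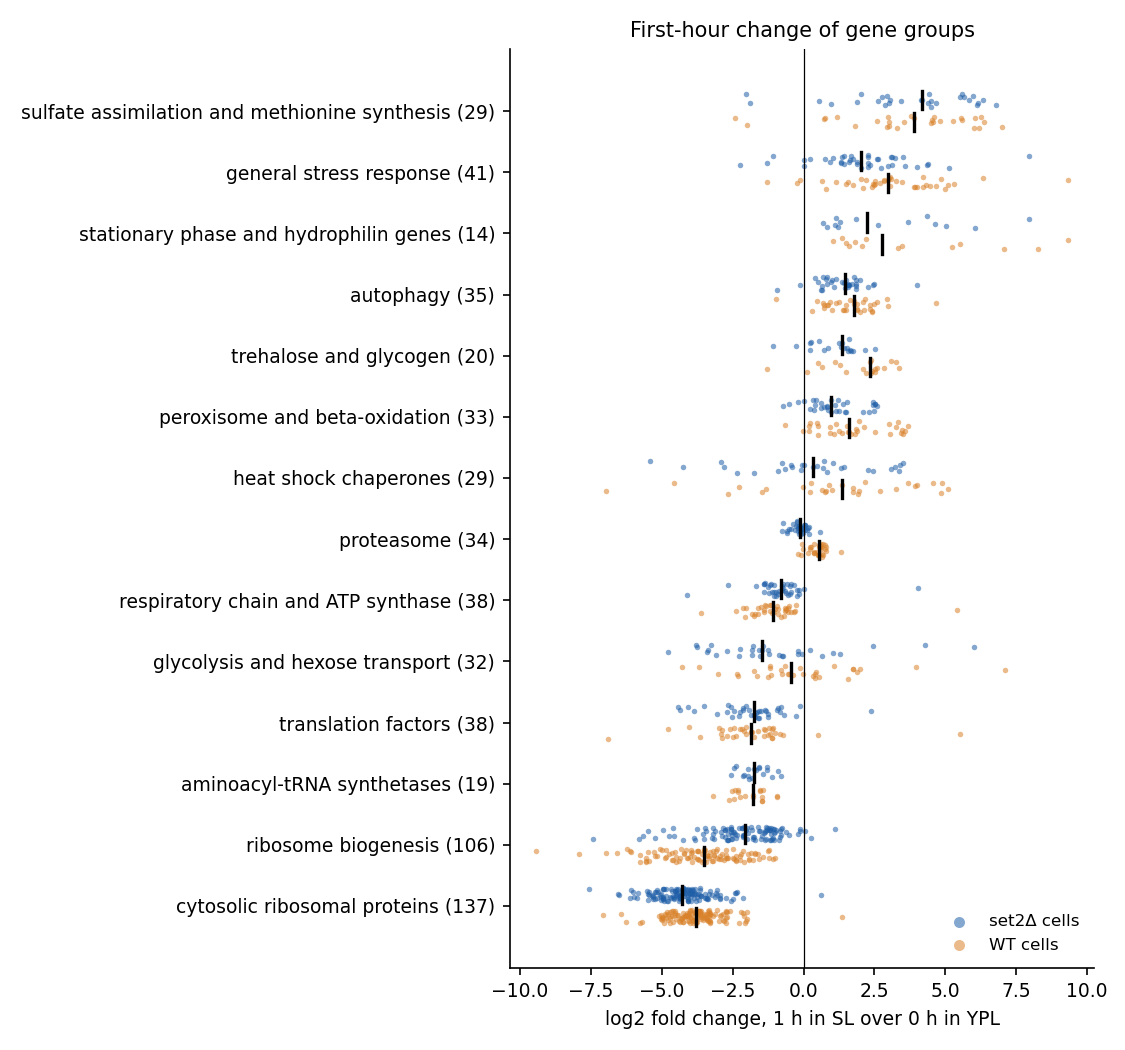
Each point is 1 gene of the group named at the left (number tested in brackets), placed by its log2 fold change, 1 h in SL over 0 h in YPL, with set2Δ cells above and WT cells below in each row; black ticks mark medians. In set2Δ cells the medians run from 4.18 for sulfate assimilation and methionine synthesis to -4.30 for ribosomal proteins, and the ribosome biogenesis row shows a set2Δ median of -2.07 and a WT median of -3.50.

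Recycling and storage genes rose too, beside 34.1% of all genes called higher and 34.9% called lower. Of 35 autophagy genes 33 rose and 1 fell, 0 without set2Δ 1 h replicate 2 (median 1.45), led by ICY2, with 609 and 631 CPM at 1 h and 38.3 and 39.8 CPM at 0 h. All 11 vacuolar hydrolase genes rose (median 0.80), among them PRB1, the main vacuolar serine protease, by 2.20 ± 0.10 log2 units. Of 20 trehalose and glycogen genes 17 rose and 2 fell, 1 without set2Δ 1 h replicate 2 (median 1.34), and of 33 peroxisome and beta-oxidation genes 28 rose and 3 fell (median 0.98). POT1, the last enzyme of the beta-oxidation cycle, had 891 and 882 CPM at 1 h and 151 and 146 CPM at 0 h. Both libraries at 1 h stood above both at 0 h, a log2 change of 2.58 ± 0.08. CRF1, a corepressor of ribosomal protein genes, rose to 269 and 245 CPM at 1 h, against 15.5 and 16.6 CPM at 0 h. YAK1, a kinase that acts when nutrients are short, rose to 199.8 and 229.5 CPM at 1 h, against 49.6 and 65.6 CPM at 0 h.

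Ribosomal protein genes fell almost without exception, beside 34.9% of all genes called lower. Of 137 cytosolic ribosomal protein genes, 136 fell, all of them at least 2-fold, and 1 rose; the median log2 change was -4.30. Together they made up 0.91% and 0.81% of all counts at 1 h, against 14.6% and 13.1% at 0 h. RPS26B, of the small subunit, had 5.23 and 3.11 CPM at 1 h and 839.9 and 730.2 CPM at 0 h, a log2 change of -7.56 ± 0.14. RPL3, of the large subunit, had 56.9 and 55.3 CPM at 1 h and 4190.2 and 3510.0 CPM at 0 h. In both genes each library at 1 h lay far below each at 0 h. RPL15B, the minor copy of its pair, was the exception that rose, with 90.8 and 75.7 CPM at 1 h and 57.6 and 50.8 CPM at 0 h, a log2 change of 0.62 ± 0.11. Because 53 of the 137 genes have a near-identical copy, RPS26B and RPL15B among them, the split of reads between copies is uncertain.

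The machinery that makes ribosomes and loads tRNAs fell with them, beside 34.9% of all genes called lower. Of 106 ribosome biogenesis genes 100 fell, 2 rose and 4 were not called, with a median log2 change of -2.07. NSR1, a nucleolar protein of early pre-rRNA processing, had 2.97 and 1.84 CPM at 1 h and 416 and 404 CPM at 0 h, a log2 change of -7.41 ± 0.14. NOP58, a core protein of the small nucleolar particles that methylate rRNA, had 10.1 and 6.8 CPM at 1 h and 479.6 and 471 CPM at 0 h. DRS1, a nucleolar helicase of the large subunit pathway, rose instead, with 255 and 254 CPM at 1 h and 101 and 138 CPM at 0 h, a log2 change of 1.09 ± 0.12. ECM16, a helicase of the small subunit pathway, rose by 0.28 ± 0.12 (adjusted p = 0.048), and its libraries at the 2 times overlapped, with 108 and 115 CPM at 1 h and 76.1 and 108 CPM at 0 h. The call for ECM16 was lost when only the groups compared were fitted (0.31, adjusted p = 0.11) and without any of 3 libraries: without set2Δ 0 h replicate 1 its log2 change was 0.04 (adjusted p = 0.796), without set2Δ 1 h replicate 1 it was 0.33 (0.0616) and without set2Δ 1 h replicate 2 it was 0.23 (0.195). All 19 aminoacyl-tRNA synthetase genes tested fell (median -1.74), as did 35 of 38 translation factor genes (median -1.74). YEF3, the elongation factor found in fungi, had 185 and 178 CPM at 1 h and 3760.5 and 3589 CPM at 0 h, while HEF3, its paralog, had 280.0 and 268 CPM at 1 h and 56.6 and 48.1 CPM at 0 h and rose by 2.39 ± 0.09 log2 units.
NSR1 promoter, chrVII:807657-807956, minus strand: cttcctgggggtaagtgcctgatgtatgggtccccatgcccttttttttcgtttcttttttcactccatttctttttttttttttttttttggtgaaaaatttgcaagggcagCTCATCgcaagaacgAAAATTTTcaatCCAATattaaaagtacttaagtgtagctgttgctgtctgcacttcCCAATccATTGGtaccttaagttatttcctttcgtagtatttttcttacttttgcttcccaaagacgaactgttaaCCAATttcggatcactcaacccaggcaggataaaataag
DRS1 promoter, chrXII:131429-131728, plus strand: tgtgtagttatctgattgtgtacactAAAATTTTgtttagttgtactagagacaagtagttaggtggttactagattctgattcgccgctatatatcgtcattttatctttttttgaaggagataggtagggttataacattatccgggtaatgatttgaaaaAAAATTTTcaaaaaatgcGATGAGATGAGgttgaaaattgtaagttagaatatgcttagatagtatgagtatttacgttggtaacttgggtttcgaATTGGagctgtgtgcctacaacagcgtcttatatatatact
Both windows held PAC and RRPE, the 2 motifs known from ribosome biogenesis promoters: NSR1, which fell furthest, held GATGAG once and AAAATTTT once, and DRS1, which rose, held GATGAG in 2 overlapping copies and AAAATTTT in 2 copies. GATGAG was in 90.6% and AAAATTTT in 79.2% of the 106 biogenesis promoters, against 18.6% and 9.61% of all promoters. Among genes called at least 2-fold lower the shares were 29.4% and 22.7%, and among those at least 2-fold higher 12.4% and 3.43%.

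**Figure D2:**
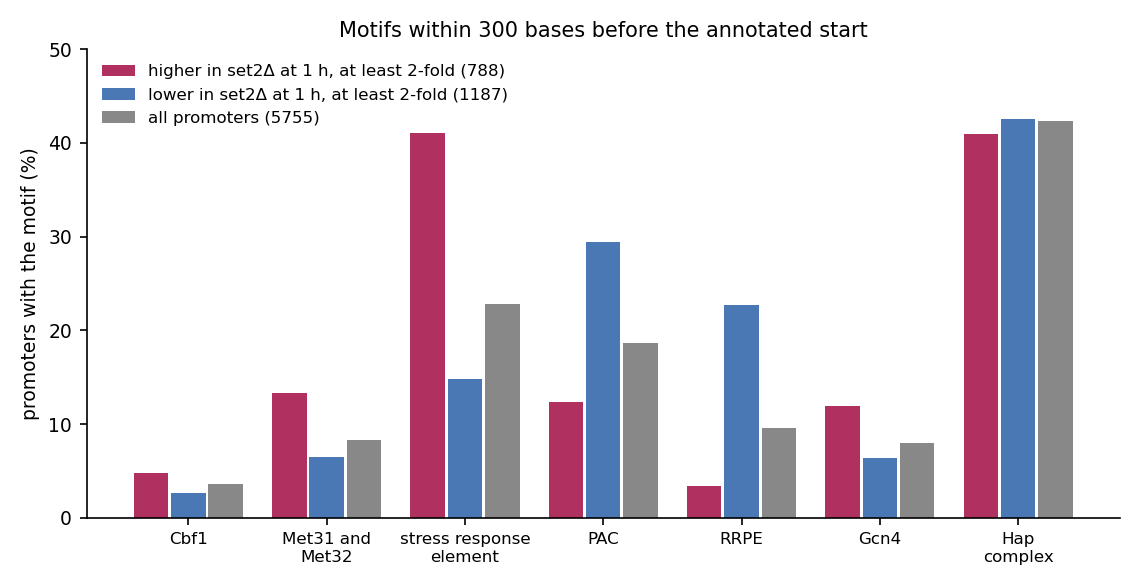
Bars give the percentage of promoters (300 bases before the annotated start) that hold each motif on either strand, for genes called at least 2-fold higher in set2Δ at 1 h (788 promoters), at least 2-fold lower (1187) and all genes with a promoter (5755). AGGGG, the stress response element, is in 41.1% of the promoters of higher genes, and PAC and RRPE are in 29.4% and 22.7% of those of lower genes.

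Carbon and energy genes were divided, beside 34.1% of all genes called higher and 34.9% called lower. Of 32 genes of glycolysis and hexose transport 21 fell and 6 rose (median -1.45). PGK1, phosphoglycerate kinase, had 1561 and 1659 CPM at 1 h and 4379 and 3294 CPM at 0 h, a log2 change of -1.25 ± 0.11. PDC1, the main pyruvate decarboxylase, had 153 and 157 CPM at 1 h and 2249 and 2003 CPM at 0 h, whereas PDC6, its minor isozyme with little sulfur in its protein, had 201 and 209 CPM at 1 h and 3.4 and 2.91 CPM at 0 h. The isozymes moved in opposite directions, by -3.78 ± 0.10 for PDC1 and 6.01 ± 0.16 log2 units for PDC6. HXT5, a hexose transporter of slow growth, rose by 4.27 ± 0.09. Of 38 genes of the respiratory chain and ATP synthase 32 fell and 1 rose (median -0.81). CYC1, cytochrome c, had 599 and 581 CPM at 1 h and 4035 and 3455 CPM at 0 h, a log2 change of -2.67 ± 0.09. NDE2, an external NADH dehydrogenase, was the member that rose, with 447 CPM in each library at 1 h and 26.5 and 27.8 CPM at 0 h.
CYC1 promoter, chrX:526035-526334, plus strand: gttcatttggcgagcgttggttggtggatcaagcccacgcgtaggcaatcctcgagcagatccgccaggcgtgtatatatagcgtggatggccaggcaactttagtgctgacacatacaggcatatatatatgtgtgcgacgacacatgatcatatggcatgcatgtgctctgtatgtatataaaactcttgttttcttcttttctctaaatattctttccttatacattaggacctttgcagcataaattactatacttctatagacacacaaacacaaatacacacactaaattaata
The CYC1 window held none of the motifs searched, while 86.8% of the 38 respiratory promoters held CCAAT, against 42.3% of all promoters.

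Some genes of metal, nucleotide and membrane metabolism moved far. CTR1, the copper importer, had 9.74 and 11.7 CPM at 1 h and 1113 and 1616 CPM at 0 h, a log2 change of -6.98 ± 0.29. FRE7, a copper-regulated reductase, had 17.3 and 13.1 CPM at 1 h and 839.6 and 996 CPM at 0 h. PHO84, the phosphate importer, had 15.3 and 19 CPM at 1 h and 511 and 588 CPM at 0 h. URA7, CTP synthase, fell by 5.83 ± 0.15 on the log2 scale and GUA1, GMP synthase, by 4.90 ± 0.14. ADE17, of purine synthesis, rose by 2.79 ± 0.16 and GCV1, of the glycine cleavage system, by 2.51 ± 0.08. LEU1 of leucine synthesis had 1661 and 1743 CPM at 1 h and 146 and 172 CPM at 0 h. Of 30 phospholipid synthesis genes 12 rose and 11 fell (median 0.07), shares near the 34.1% and 34.9% over all genes, and with library totals 16 rose and 7 fell. INO1, for inositol phosphate synthase, had 567 and 648 CPM at 1 h and 86.6 and 94.4 CPM at 0 h. CHO2, the first methyltransferase on the way to phosphatidylcholine, had 576 and 555 CPM at 1 h and 573 and 455 CPM at 0 h, values that overlapped (log2 change 0.14 ± 0.08, adjusted p = 0.15); it was called with library totals (0.44) and without set2Δ 0 h replicate 1 (0.31, adjusted p = 0.00331). OPI3, which completes those methylations, rose by 0.85 ± 0.10. Of 11 core and variant histone genes 8 fell and 1 rose, 0 without set2Δ 0 h replicate 2: HTB2 had 103 and 95.9 CPM at 1 h and 859 and 738 CPM at 0 h. RPH1, for the demethylase that removes the mark Set2 makes, had 81.5 and 101 CPM at 1 h and 43.1 and 47.6 CPM at 0 h, a log2 change of 1.01 ± 0.13.

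By the size rule for named genes the initiator tRNA gene IMT2 also belongs to the 15 largest rises, but it had 7 and 10 counts at 1 h and 0 counts in both libraries at 0 h, and near-identical copies exist, so no fold change is given. The rest of the 15 were BDS1, a sulfatase, AGP3, a permease, STR3, a beta-lyase of methionine synthesis, and MET2, homoserine acetyltransferase, with log2 changes of 5.83, 5.70, 6.10 and 5.65, beside those given above. Of the other genes named, NSR1, CTR1, URA7, NOP58, PGK1, GPM1, NOP4, YAK1, HXK1, HEF3, MET2 and MET28 overlap another annotated gene, and no source used here says whether counting used strand.

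Most of this response was shared with WT cells in its direction. Of the 2220 genes that rose in set2Δ, 1883 also rose in WT, which is 84.8% of the set2Δ list and 77.6% of the WT list. Of the 2269 that fell in set2Δ, 1932 also fell in WT, 85.1% of the set2Δ list and 85.4% of the WT list. Across the 6503 genes the log2 changes of the 2 strains had a Pearson r of 0.82 and a Spearman rho of 0.84, a description across genes of libraries prepared alike. The median absolute log2 change was 0.73 in set2Δ and 0.86 in WT. WT had 4687 calls (72.1%), 2425 higher (37.3%) and 2262 lower (34.8%), with 1155 at least 2-fold higher (17.8%) and 1320 at least 2-fold lower (20.3%).

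The test of the difference between the responses called 1827 genes (28.1%), 711 with a higher value in set2Δ (10.9%) and 1116 with a lower one (17.2%). At least 2-fold, 219 were higher (3.37%) and 192 lower (2.95%). Of the 711, 581 fell in WT, and of the 1116, 789 rose in WT. Because the WT response is subtracted in this difference, such a split is partly built in and says little by itself. Scaling by library totals turned this split round, to 1196 higher and 612 lower (66.2% of calls higher, against 38.9%), and median-of-ratios scaling gave 914 and 824 (52.6% higher). The median differences of the ribosome biogenesis, ribosomal protein, stress, trehalose and glycogen, heat shock, proteasome, glycolysis and respiratory groups kept their sign under all 3 scalings.

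**Figure D3:**
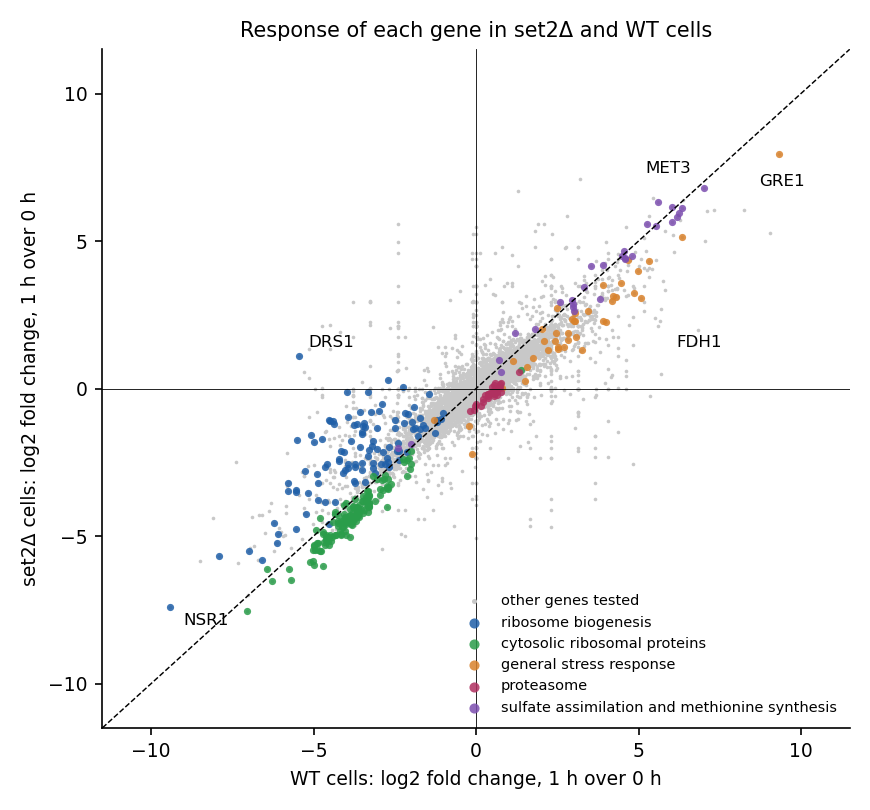
Each point is 1 of the 6503 genes tested, placed by its log2 fold change, 1 h over 0 h, in WT cells (horizontal) and in set2Δ cells (vertical); colours mark 5 gene groups and the dashed line marks equal change. Most ribosome biogenesis genes lie above the line on the left, with DRS1 at 1.09 in set2Δ and -5.45 in WT, while most stress response and proteasome genes lie below it.

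Ribosome biogenesis genes fell less in set2Δ than in WT. All 106 fell in WT, with a median of -3.50, against 100 that fell in set2Δ with a median of -2.07. The difference was called higher in set2Δ for 82 of the 106 genes and lower for 0, beside 10.9% called higher over all genes, and its median was 1.25 against -0.08 over all genes. In level, 48 of the 106 were called below WT at 0 h and 0 above (median -0.28), and at 1 h 1 was called below and 77 above (median 1.03). Over all genes 8.73% were called below WT and 13.3% above at 0 h, and 27.3% below and 20.4% above at 1 h. For DRS1 the strains parted: its 255 and 254 CPM in set2Δ at 1 h compare with 3.76 and 3.8 CPM in WT at 1 h, and its 101 and 138 CPM in set2Δ at 0 h with 169.5 and 163 CPM in WT at 0 h. The difference of the responses was 6.55 ± 0.23 log2 units (adjusted p = 1.56e-16). NOP4, of the large subunit pathway, had 136 and 119 CPM in set2Δ at 1 h and 147 and 131 CPM in set2Δ at 0 h, values that overlapped (log2 change -0.13 ± 0.13, adjusted p = 0.386), against 12.4 and 7.32 CPM in WT at 1 h and 166 and 149 CPM in WT at 0 h. MDN1, the ATPase that strips assembly factors from the large subunit and is not on the list, had log2 changes of -0.58 in set2Δ and -4.02 in WT. With limma-trend on log2(FPKM + 1) the change of MDN1 in set2Δ was not called (-0.263, adjusted p = 0.155). RRP5, needed for both subunits, had log2 changes of -1.08 in set2Δ and -4.54 in WT. NSR1 was low in both strains at 1 h, at 2.97 and 1.84 CPM in set2Δ and 1.17 and 0.732 CPM in WT.

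The difference was larger in longer biogenesis genes. In the 53 longer genes of the list (median exonic length of the list 1527 bases) the median change was -1.53 in set2Δ and -3.95 in WT, and the difference was called higher for all 53. In the 53 shorter genes the medians were -2.43 in set2Δ and -3.04 in WT, and 29 were called higher. Across the 106 genes the difference rose with log2 length (Pearson r = 0.70, Spearman rho = 0.84; genes share libraries and are not independent). Within single strains the rho of length with the response was 0.37 in set2Δ, 0.32 in H3K36A and -0.32 in WT. Over the 137 ribosomal protein genes, of 78 to 1164 bases, r was 0.13 and rho 0.08. Among the other lists with 30 or more genes (12 in all), glycolysis and hexose transport had a rho of 0.50, translation factors 0.41, autophagy 0.39, TORC1 and nutrient signalling 0.39 and RNA polymerase I and III 0.33, and the remaining 5 lay between -0.09 and 0.15. Over all genes the share called higher in set2Δ ran from 1.61% in the shortest 1301 genes to 23.7% in the longest 1301, but the median difference ran only from -0.21 to 0.07, and longer genes also gather more counts (median 1.59 CPM in the shortest 1301 and 85.5 CPM in the longest 1301, set2Δ at 0 h), whose part in the calls was not tested.

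**Figure D4:**
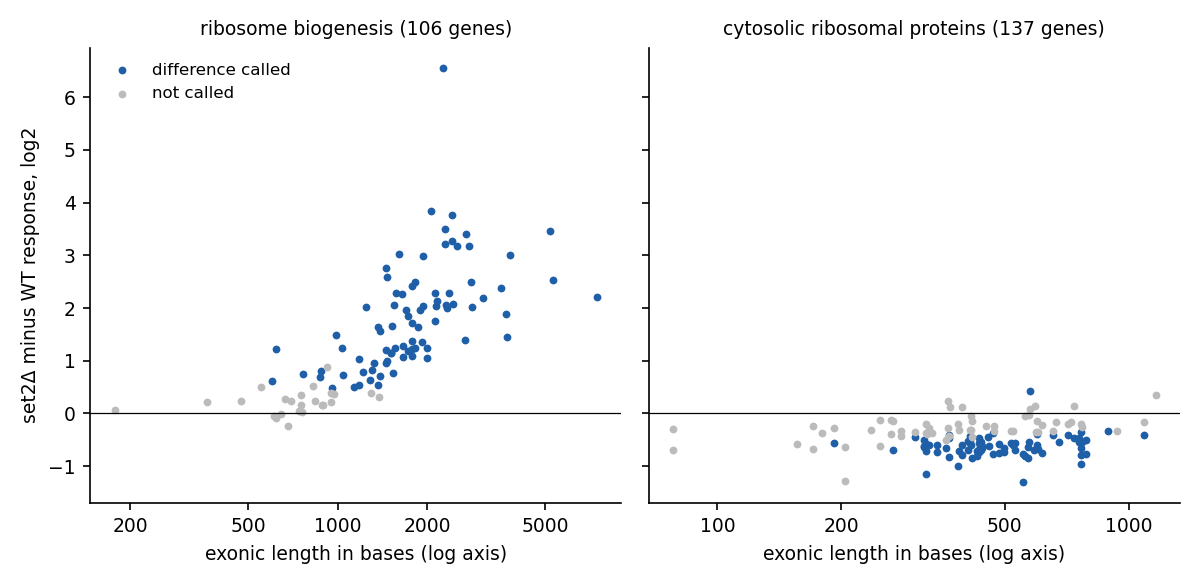
The log2 response of set2Δ cells minus that of WT cells is plotted against exonic length (log axis) for 106 ribosome biogenesis genes (left) and 137 ribosomal protein genes (right); blue points were called at an adjusted p under 0.05. The biogenesis genes reach 6.55 (DRS1) and lie higher at greater length, while the ribosomal protein genes have a median of -0.50.

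Other groups had a lower response in set2Δ than in WT. Ribosomal protein genes fell further in set2Δ, with 77 of 137 called lower, 1 called higher and a median difference of -0.50; without the library set2Δ 0 h replicate 1, 48 were called lower, and with library totals 49. In the general stress response 35 of 41 genes had a lower response in set2Δ and 0 a higher one, beside 17.2% called lower over all genes, with a median difference of -0.96. Their level in set2Δ was already higher at 0 h, where 31 of the 41 were called above WT and 1 below, and at 1 h 23 were called below WT and 3 above. Over all genes the shares called above and below WT were 13.3% and 8.73% at 0 h and 20.4% and 27.3% at 1 h. CTT1 had 26.5 and 34.5 CPM in set2Δ and 18.4 and 15.9 CPM in WT at 0 h, and 1069 and 1065 CPM in set2Δ and 1395 and 1361 CPM in WT at 1 h. Trehalose and glycogen genes gave 17 of 20 lower and heat shock chaperone genes 26 of 29 lower, and 14 and 21 of them were called higher in set2Δ at 0 h. TSL1, of the trehalose synthase complex, had 419 and 473 CPM in set2Δ at 1 h and 157 and 201 CPM in set2Δ at 0 h, against 716 and 696 CPM in WT at 1 h and 69.9 and 77.3 CPM in WT at 0 h.

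Proteasome genes differed in nearly every member by a small amount. The difference was lower in set2Δ for 33 of 34 genes, with a median of -0.64 and a highest value of -0.41. At 0 h 0 of the 34 were called different from WT, and at 1 h 33 were called below it, beside 27.3% of all genes. RPN4, the activator of these genes, had 338 and 387 CPM in set2Δ at 1 h and 208 and 283 CPM in set2Δ at 0 h, against 531 and 524 CPM in WT at 1 h and 203 and 219 CPM in WT at 0 h. In set2Δ alone 14 proteasome genes fell and 3 rose, beside 34.9% and 34.1% of all genes. Their median log2 change lay between -0.156 and -0.114 without single set2Δ libraries. With library totals, however, 6 fell and 17 rose, while the difference from WT was lower for 32 with library totals.

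Of 32 glycolysis and hexose transport genes, 19 gave a lower response in set2Δ than in WT and 0 a higher one. Over all genes the shares called lower and higher in this difference were 17.2% and 10.9%. PGK1 fell in set2Δ by 1.25 on the log2 scale and rose in WT by 0.40, with 1561 and 1659 CPM in set2Δ at 1 h against 4834 and 4635 CPM in WT at 1 h. GPM1, phosphoglycerate mutase, had 908 and 979.7 CPM in set2Δ at 1 h and 3094 and 2581 CPM in set2Δ at 0 h, against 4418 and 4257 CPM in WT at 1 h and 3588 and 3355 CPM in WT at 0 h. Respiratory genes had a higher response in set2Δ for 19 of 38 and a lower one for 1; leaving out the second library of WT at 0 h or at 1 h gave 11 higher in either case, and leaving out set2Δ 1 h replicate 1 gave 12.

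Of the 29 genes of sulfate assimilation and methionine synthesis, 6 had a higher response in set2Δ than in WT, 2 a lower one and 21 were not called, beside 10.9% higher and 17.2% lower over all genes. Without WT 0 h replicate 1 the 6 became 3, and the 2 became 1 without WT 1 h replicate 2, set2Δ 0 h replicate 1 or set2Δ 1 h replicate 2. The median difference was -0.003, and 0.19 with library totals. For MET3 the difference was -0.21 ± 0.14 (adjusted p = 0.293), which does not show that the responses were equal. MET6 was called, at 0.75 ± 0.15 (adjusted p = 0.000586), with 80.2 and 93.2 CPM in set2Δ and 146 and 152 CPM in WT at 0 h.

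**Figure D5:**
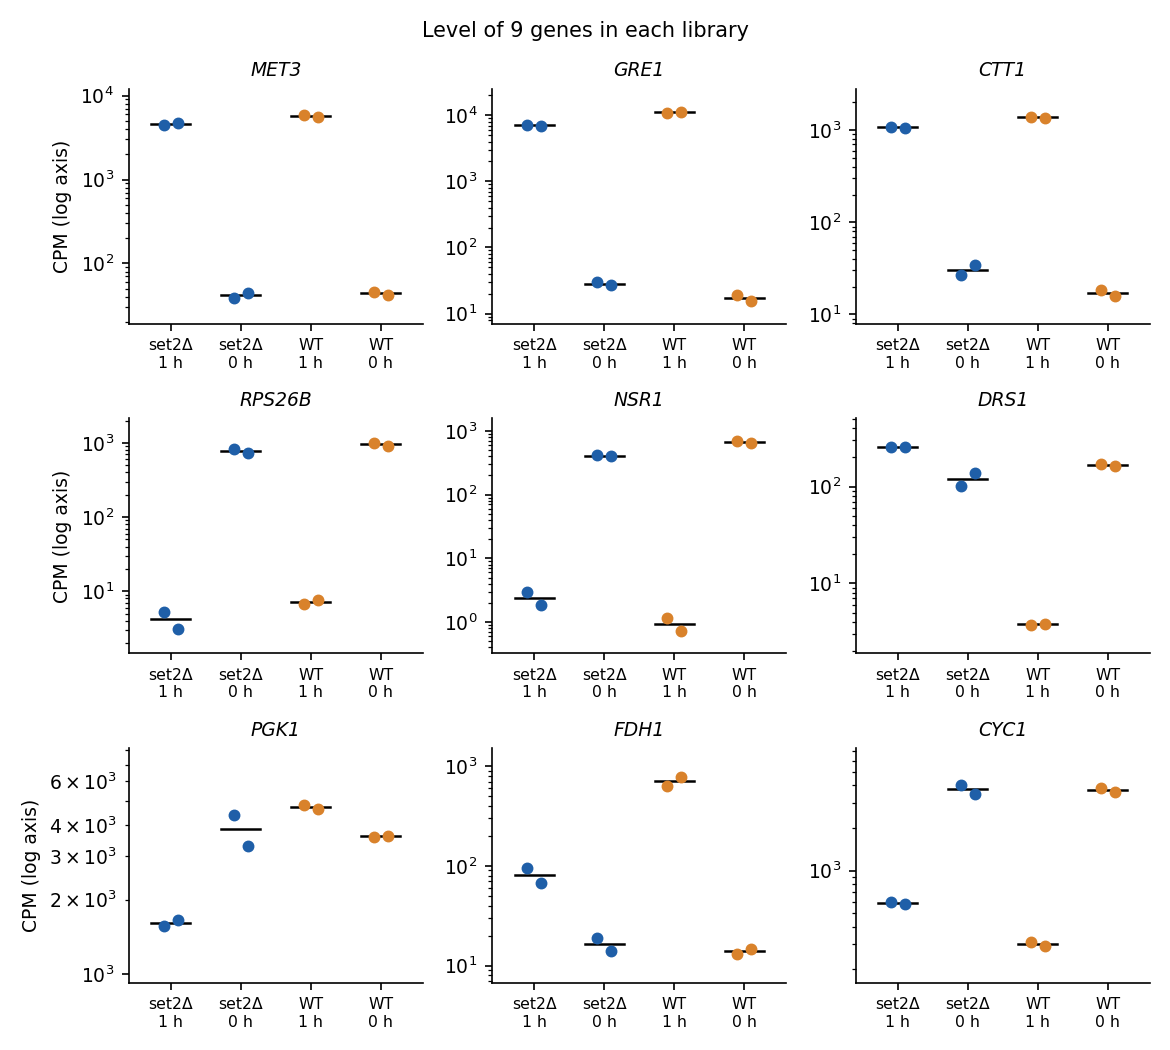
Each panel gives 1 gene in CPM (log axis) in the 2 libraries of set2Δ at 1 h, set2Δ at 0 h, WT at 1 h and WT at 0 h; points are libraries and bars are means. MET3 and GRE1 rise in both strains, DRS1 rises in set2Δ and drops to 3.76 and 3.8 CPM in WT at 1 h, PGK1 falls in set2Δ and not in WT, and FDH1 reaches 95.2 and 67.1 CPM in set2Δ against 638 and 777 CPM in WT.

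Between set2Δ and WT 95 genes were called in opposite directions, 43 that rose in set2Δ and fell in WT and 52 that fell in set2Δ and rose in WT. They were 2.1% of the genes called in set2Δ, and between set2Δ and H3K36A 35 genes (0.8%) were called in opposite directions. The 43 had a median exonic length of 2715 bases and the 52 of 981, against 1074 over all genes. The part of read depth in these lengths was not tested. Some of the 52 fell in set2Δ by less than the shift of the median with library totals, the least by 0.16 log2 units. Calls in opposite directions were not counted under other scalings, so these counts and lengths hold for the main scaling only. Named after their values were seen, as were GPM1, PGK1, TSL1, HSP12, MUP1, CHO2, OPI3, EST2, HSC82 and SSA2, BNR1, a formin, had 205 and 210.3 CPM in set2Δ at 1 h and 82.1 and 78 CPM in set2Δ at 0 h, against 21.1 and 17.7 CPM in WT at 1 h and 33.1 and 31.7 CPM in WT at 0 h. EST2, the catalytic subunit of telomerase, rose by 1.16 in set2Δ and fell by 0.46 in WT. In the other direction HSC82 and SSA2, chaperones of the Hsp90 and Hsp70 families with near-identical copies, had log2 changes of -0.40 and -0.89 in set2Δ and 0.66 and 0.25 in WT; with library totals HSC82 was not called in set2Δ (log2 change -0.10, adjusted p = 0.183).

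The test of the difference between the responses of set2Δ and H3K36A, whose H3 is labelled as lacking the residue Set2 methylates, called 831 genes (12.8%), 454 higher in set2Δ (6.98%) and 377 lower (5.8%), of which 83 (1.28%) and 66 (1.01%) were at least 2-fold, and with library totals 603 and 277 (68.5% of calls higher, against 54.6%). Both comparisons use the same set2Δ libraries, and whether 831 and 1827 differ was not tested. Ribosome biogenesis genes gave 8 higher, 3 lower and 95 not called; the 8 became 3 without set2Δ 1 h replicate 1 and 5 without H3K36A 1 h replicate 2. DRS1 rose by 0.81 in H3K36A, with 193 and 199 CPM at 1 h and 111 and 112 CPM at 0 h. Of the 2220 genes that rose in set2Δ, 1992 rose in H3K36A (89.7% of the set2Δ list and 84.4% of the H3K36A list), and of the 2269 that fell, 2080 fell there (91.7% of the set2Δ list and 88.0% of the H3K36A list). H3K36A had 4723 calls (72.6%), 2360 higher (36.3%) and 2363 lower (36.3%), with 1111 at least 2-fold higher (17.1%) and 1361 at least 2-fold lower (20.9%). Respiratory genes had a higher response in set2Δ for 29 of 38, and peroxisome and beta-oxidation genes a lower one for 17 of 33. Against WT, 20 of those 33 genes had a lower response and 0 a higher one. Of 14 stationary phase and hydrophilin genes, 9 had a lower response than in WT. Against H3K36A, 6 of these 14 had a lower response and 2 a higher one. In the groups named next, which had a lower response than in WT, most members were not called against H3K36A. That does not show equal responses. Not called were 117 of 137 ribosomal protein, 31 of 41 stress, 16 of 20 trehalose and glycogen and 22 of 29 heat shock genes. The same held for 28 of 34 proteasome and 17 of 32 glycolysis and hexose transport genes. Median log2 changes in H3K36A were 2.05 for stress, -1.45 for glycolysis and hexose transport and 0.13 for proteasome genes.

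FDH1, ADY2 and ACS1 rose less in set2Δ than in both other strains. FDH1, formate dehydrogenase, which has a near-identical copy, had 95.2 and 67.1 CPM in set2Δ at 1 h and 18.9 and 14.1 CPM in set2Δ at 0 h, against 1479.5 and 1310.1 CPM in H3K36A at 1 h and 17.5 and 16.3 CPM in H3K36A at 0 h; the difference of responses was -4.07 ± 0.24 from H3K36A and -3.36 ± 0.25 from WT. ADY2, an acetate transporter, had 304 and 294 CPM in set2Δ at 1 h and 101 and 86.5 CPM in set2Δ at 0 h, against 2303 and 2989 CPM in H3K36A at 1 h and 92.5 and 98.5 CPM in H3K36A at 0 h. WT had 1761 and 1978 CPM of ADY2 at 1 h and 116 and 120.1 CPM at 0 h, and the difference of responses was -3.12 ± 0.16 from H3K36A and -2.31 ± 0.16 from WT. ACS1, acetyl-CoA synthetase, rose by 2.22 in set2Δ and by 3.69 in H3K36A and 3.63 in WT, and both differences were called. The list that holds ADY2 and ACS1, lactate use and gluconeogenesis, did not move as one: of its 24 genes 5 had a higher response than in H3K36A and 9 a lower one, and 3 a higher response than in WT and 8 a lower one. At 3 h in SL set2Δ had 1533 and 1473 CPM of FDH1, 2906 and 3228 CPM of ADY2 and 5702 and 6260.3 CPM of ACS1. PDC6 rose by 6.01 in set2Δ and by 2.96 in H3K36A, and JLP1, a sulfonate dioxygenase that frees sulfur, had 180.2 and 177 CPM in set2Δ at 1 h and 9.07 and 8 CPM in set2Δ at 0 h, against 19.3 and 18.6 CPM in H3K36A at 1 h and 5.61 and 7.11 CPM in H3K36A at 0 h. Against WT, the highest difference of responses was 0.73 in the glycolysis and hexose transport list, which holds PDC6. It was 0.75 in the sulfate assimilation and methionine synthesis list, which holds JLP1. These are the highest values of whole lists and so only upper limits for PDC6 and JLP1 themselves.

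Levels in set2Δ at 3 h are given with no test. MET3 stood at 39.3 and 44.1 CPM at 0 h, 4512 and 4776 CPM at 1 h and 1351 and 1253 CPM at 3 h. RPS26B stood at 839.9 and 730.2 CPM at 0 h, 5.23 and 3.11 CPM at 1 h and 91.5 and 84.4 CPM at 3 h. GRE1 stood at 10661 and 11296 CPM and DRS1 at 262 and 288 CPM at 3 h, above and near their values at 1 h.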

How the data were processed

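RNA-seq was deposited for 24 libraries of 12 groups. Per the submitters' processing notes, cutadapt 1.9.1, HISAT2 2.0.1 and HTSeq 0.6.1 were used with sacCer3; no source used here says how shared reads and strand were handled. The deposited table holds raw read counts per gene and the authors' FPKM, which match FPKM recomputed from those counts within 0.0051 for 100% of values. Tests covered 6503 of 7126 genes, those reaching 1 FPKM in 2 or more libraries, and left out 623. All 24 libraries were fitted together, 1 mean per group, with edgeR 4.0.16 (R 4.3.3) quasi-likelihood tests on the counts, scaled by the trimmed mean of M values; adjusted p is Benjamini-Hochberg over all genes tested, and the SE is the log2 change over the root of F. The difference of responses is the interaction of strain and time. CPM are counts scaled to a common library size in the same way. The limit of 3 counts for a gene at 0 covers counting error only. Promoters come from the R64 sequence, whose coordinates equal the table's for 6036 of 6048 matched genes. limma 3.58.1, DESeq2 1.42.0, other scalings and filters and fits without each library were alternatives. Genes are named by size: the 15 highest and 15 lowest changes past 2-fold without overlap at an FPKM of at least 10, the 3 highest and 3 lowest of each list, and the 8 highest and 8 lowest of each difference; others are said to be chosen after their values. The members and lists were chosen with earlier results of these data known. The fit was tested on simulated data in which far fewer genes changed between set2Δ at 1 h and at 0 h. That test does not cover a contrast in which most genes change.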

Additional observations from a re-analysis of the deposited data

Results flagged for a closer look

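The first-hour response differed between set2Δ and WT cells, by edgeR's test of the interaction, in 711 genes with a higher value in set2Δ and 1116 with a lower one. The 8 highest differences named (log2, set2Δ minus WT) were 6.55 for DRS1, 3.85 for NOP4, 3.76 for ERB1, 3.73 for RFU1, 3.49 for PRP43, 3.46 for RRP5, 3.44 for MDN1 and 3.41 for UTP14. RFU1, an inhibitor of the deubiquitinase Doa4, rests on few reads at 1 h (0.71 and 0.35 CPM in set2Δ, 0.13 and 0 CPM in WT) and was not called without set2Δ 1 h replicate 1 (3.14, adjusted p = 0.0873). The 8 lowest were -3.36 for FDH1, -3.13 for HEF3, -3.08 for AAD16, -2.78 for AAD6, -2.63 for OYE3, -2.60 for TDH1, -2.53 for PMA2 and -2.47 for HPF1. FDH1, AAD16 and TDH1 have near-identical copies. The aryl-alcohol dehydrogenase gene AAD6 had 145 and 148 CPM in set2Δ at 1 h and 144 and 162 CPM in set2Δ at 0 h, against 126 and 120.0 CPM in WT at 1 h and 22.6 and 14.7 CPM in WT at 0 h, so the strains stood apart at 0 h.

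Between set2Δ and H3K36A the response differed in 454 genes with a higher value in set2Δ and 377 with a lower one. The 8 highest differences (log2, set2Δ minus H3K36A) were 3.05 for PDC6, 2.81 for JLP1, 2.05 for YHB1, 2.04 for MRH1, 1.88 for DLD3, 1.83 for RGM1, 1.81 for GND1 and 1.79 for UPS2. RGM1 was not called without H3K36A 1 h replicate 1 (1.65, adjusted p = 0.0676) or without set2Δ 0 h replicate 1 (1.47, adjusted p = 0.0512). The 8 lowest were -4.07 for FDH1, -3.12 for ADY2, -2.33 for ALP1, -1.98 for DAT1, -1.72 for PTR2, -1.72 for HXT14, -1.70 for FRE4 and -1.67 for SPG1.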

How the results depend on the processing

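Without each library in turn, genes called for set2Δ 1 h against 0 h numbered 4175 to 4296 (2012 to 2156 higher, 2128 to 2219 lower; at least 2-fold, 889 to 952 higher and 1197 to 1234 lower), set2Δ minus WT 1504 to 1989 (583 to 811 higher, 822 to 1178 lower; 214 to 264 and 158 to 221) and set2Δ minus H3K36A 610 to 895 (323 to 492 higher, 273 to 403 lower; 70 to 98 and 49 to 78). With library totals 1388 genes were at least 2-fold higher in set2Δ, and the difference from WT was higher for 1196 and lower for 612 (108 at least 2-fold lower). limma-trend on log2(FPKM + 1) gave 1179, 609 and 115 for these differences. Fitting only the groups compared gave 526 genes for set2Δ minus H3K36A, 210 lower; the cause was not tested. The replicate block gave 4479, 1819 and 826 calls; with 2 pairs the numbers cannot be shown to pair libraries (r = 0.373 between the replicate differences of set2Δ at 1 h and at 0 h). Among named genes not called in set2Δ, NOP4 changed sign with library totals (0.171) and limma-trend (0.167), and without single libraries CHO2 ranged from -0.018 to 0.305 and STE3 from -0.904 to 0.257; CHO2 was called with library totals (0.437, adjusted p = 1.33e-05), with limma-trend (0.441, adjusted p = 5.21e-05) and without set2Δ 0 h replicate 1 (0.305, adjusted p = 0.00331). Depth limits genes with few reads, such as RFU1 and STE3.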
